A study of Mus musculus with 10 samples.

Results

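The genes described here are the 8 fatty acid desaturases of 2 families, the stearoyl-CoA desaturases *Scd1*, *Scd2*, *Scd3* and *Scd4* and the fatty acid desaturases *Fads1*, *Fads2*, *Fads3* and *Fads6*. They were chosen by family membership, with earlier results of these data known, and all 8 were among the 27267 genes listed. The libraries are bulk RNA-seq of interscapular brown adipose tissue (iBAT) from male C57BL/6 mice of 4 weeks on a standard chow diet, labelled as 5 wild-type and 5 *Mgp*-KO. *Mgp* encodes matrix Gla protein, an inhibitor of bone morphogenetic proteins, and the deletion is global (line B6.129S7-Mgptm1Kry/KbosJ), so that vessels, progenitors and adipocytes all lack the gene and mice with vascular disease serve as the model. No source says which animals were littermates.

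Fatty acid desaturases are enzymes of the endoplasmic reticulum that use molecular oxygen, and electrons passed on by cytochrome b5, to place a double bond in an acyl chain. SCD enzymes convert saturated acyl-CoA, mainly palmitoyl- and stearoyl-CoA, to the monounsaturated fatty acids that fill triglycerides, phospholipids and cholesterol esters. FADS1 and FADS2 act instead on the polyunsaturated fatty acids of the diet, on the way to arachidonic and docosahexaenoic acid. In brown adipocytes, newly made fatty acids are stored in lipid droplets and burned during thermogenesis, and *Scd1* is among the genes that insulin and lipogenic transcription factors induce.

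Values are normalized counts, that is read counts scaled by the authors for depth with DESeq2 size factors, and depth ran from 9253793 to 22252260 reads. In 3 libraries the reads went against the labels. *Mgp*-KO 4 and *Mgp*-KO 5 held 309 and 282 reads of *Mgp*, against 0 to 1 in *Mgp*-KO 1 to 3. Their normalized counts of *Mgp* were 500.2 and 330.6, beside 466.1 to 1146 in wild type, so that *Mgp*-KO 4 lay within the wild-type range. Both were below wild type 4 and 5, the libraries with the same replicate numbers, which had 1146 and 839.3. The genotype of these libraries is uncertain, and the 5 libraries of the group are therefore termed KO-labelled libraries. Wild type 2 gave a normalized count of 5094 for *Xist*, while its Y-linked genes summed to 3.74, against its male label. Replicates 1 to 3 and replicates 4 and 5 also differed as sets in both groups, with 0.771 to 1.72% and 6.50 to 16.7% of reads on mitochondrial ribosomal RNA, so results are also given within each set. The labels name neither set as a batch. All 15 brown adipocyte markers were detected, with summed normalized counts of 222161 to 422599 in wild type and 154287 to 311188 in the KO-labelled libraries.

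The mouse *Scd* genes form a cluster on chromosome 19 of GRCm38 (mm10). *Scd3* occupies 44203269 to 44244016, *Scd2* 44293674 to 44306864 and *Scd4* 44333092 to 44346743, all on the plus strand. *Scd1* lies beyond them at 44394455 to 44407879, on the minus strand. *Fads3* (10041569 to 10060110, plus strand), *Fads2* (10062765 to 10101746, minus strand) and *Fads1* (10182888 to 10196877, plus strand) form a cluster of their own on the same chromosome. *Fads6* stands alone on chromosome 11, at 115279622 to 115297663 of the minus strand. The RefSeq promoter table (GRCm38.p6) matched 5 of the 8 genes, and *Scd1*, *Scd2* and *Fads1* were not among them. In each window of 300 bases, from 250 before the transcription start to 50 after it, 6 motifs were searched on both strands: the NF-Y motif CCAAT, the Sp1 motif GGGCGG, the TATA box TATAAA, the E-box CACGTG, the nuclear receptor half-site AGGTCA and the sterol regulatory element TCACNCCAC. Of all 32851 promoters in the table, 37.4% held CCAAT, 35.7% GGGCGG, 13.6% TATAAA, 7.15% CACGTG, 16.3% AGGTCA and 1.24% TCACNCCAC. The windows below belong to *Scd3* and *Scd4*, the members with the fewest reads, and to *Fads2* and *Fads3*, neighbours on opposite strands of which *Fads2* differed between the replicate sets. Capitals mark the motifs found, in either orientation.
Scd3 (chr19:44203038-44203337, plus strand): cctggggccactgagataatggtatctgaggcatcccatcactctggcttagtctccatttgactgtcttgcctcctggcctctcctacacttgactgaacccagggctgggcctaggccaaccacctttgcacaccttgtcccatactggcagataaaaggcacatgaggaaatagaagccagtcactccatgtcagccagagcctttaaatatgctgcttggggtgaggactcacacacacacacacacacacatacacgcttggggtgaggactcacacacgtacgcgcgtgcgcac
Scd4 (chr19:44333076-44333375, plus strand): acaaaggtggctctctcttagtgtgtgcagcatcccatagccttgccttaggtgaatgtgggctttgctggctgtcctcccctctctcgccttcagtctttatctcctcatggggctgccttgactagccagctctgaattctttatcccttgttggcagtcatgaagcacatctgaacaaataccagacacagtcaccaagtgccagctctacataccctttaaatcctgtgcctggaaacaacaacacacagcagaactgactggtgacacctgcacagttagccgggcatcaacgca
Fads2 (chr19:10101454-10101753, minus strand): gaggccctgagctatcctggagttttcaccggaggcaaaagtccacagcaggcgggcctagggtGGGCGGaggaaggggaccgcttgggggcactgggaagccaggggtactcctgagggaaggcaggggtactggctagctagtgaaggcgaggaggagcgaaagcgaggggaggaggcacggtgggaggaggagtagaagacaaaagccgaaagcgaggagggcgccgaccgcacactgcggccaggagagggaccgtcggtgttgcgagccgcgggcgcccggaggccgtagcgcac
Fads3 (chr19:10041298-10041597, plus strand): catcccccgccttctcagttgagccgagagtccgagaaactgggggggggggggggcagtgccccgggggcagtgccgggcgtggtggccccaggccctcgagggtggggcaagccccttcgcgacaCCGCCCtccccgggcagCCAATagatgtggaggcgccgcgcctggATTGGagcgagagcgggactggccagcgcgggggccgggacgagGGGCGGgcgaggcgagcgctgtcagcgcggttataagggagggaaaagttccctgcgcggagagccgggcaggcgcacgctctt

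None of the 6 motifs occurred in the windows of *Scd3* and *Scd4*, which had 54.0% and 50.7% G and C, close to the median of 52.7% over all promoters. The windows of *Fads2* and *Fads3* held 67.0% and 73.0% G and C. *Fads2* held 1 copy of GGGCGG, starting at position -186 from the transcription start. *Fads3* held 2 copies of GGGCGG, at -123 and -34, with 2 copies of CCAAT between them, at -106 and -78. The window of *Fads6*, at chr11:115297513-115297812 on the minus strand, held 1 copy of GGGCGG at -30 and 2 of AGGTCA, at -121 and -69. These matches describe the letters of the windows and do not show binding.

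*Scd1* supplied nearly all desaturase RNA of wild-type iBAT. Per kilobase of exon, its mean normalized count was 74866 ± 29824 (SD, n = 5), against 499.8 ± 388 (SD, n = 5) for *Scd2*. The *Fads* genes followed at 59.1 ± 8.22 for *Fads1*, 47.4 ± 8.39 for *Fads3*, 31.3 ± 14.8 for *Fads2* and 3.35 ± 0.607 for *Fads6* (SD, n = 5), with *Scd3* and *Scd4* last at 1.39 ± 1.04 and 0.917 ± 0.789. The ranges of the 5 wild-type libraries did not overlap between *Scd1* and *Scd2*, between *Scd2* and *Fads1*, between *Fads2* and *Fads6* or between *Fads6* and *Scd3*. *Fads1*, *Fads3* and *Fads2* were neighbours with overlapping ranges, as were *Scd3* and *Scd4*. Of all desaturase reads in a wild-type library, 98.8 to 99.5% belonged to *Scd1*, and it ranked from 3rd to 8th among all genes by reads. In the KO-labelled libraries the order down to *Fads6* was the same, but *Scd1* made up 84.6 to 97.8% of desaturase reads and ranked from 13th to 190th. Levels per kilobase there were 5358 ± 6340 for *Scd1*, 170.5 ± 45.5 for *Scd2*, 67.7 ± 19.8 for *Fads1*, 44.2 ± 9.35 for *Fads3*, 26.9 ± 11.3 for *Fads2* and 3.41 ± 0.815 for *Fads6* (SD, n = 5).

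**Figure D1:**
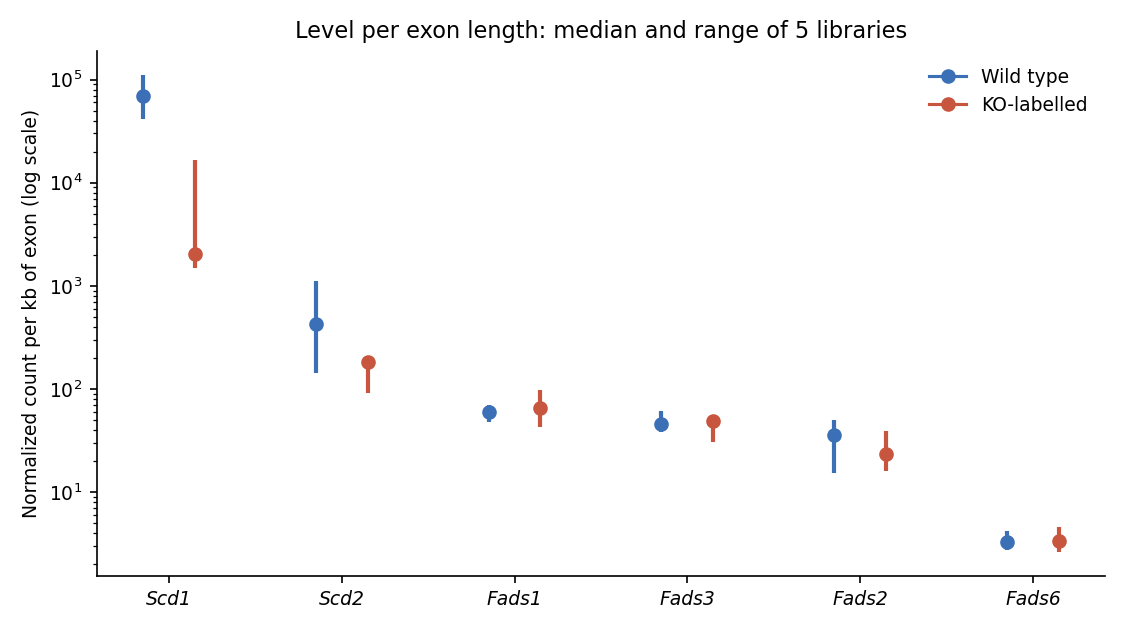
Level of the 6 desaturases that entered the test, as normalized count per kilobase of exon on a log axis. Points are medians and lines the range of 5 libraries, wild type in blue and the KO-labelled libraries in red, and *Scd1* stands above all others in both groups although its level is far lower in the second.

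*Scd1*, the main desaturase of adipose tissue and the enzyme that makes oleate from stearate, was far lower in the KO-labelled libraries. Its normalized counts were 203379, 341790, 483248, 256726 and 546078 in wild type 1 to 5. In *Mgp*-KO 1 to 5, in the same order, they were 10025, 7271, 9198, 80369 and 24189. The highest of these stood below the lowest wild-type value, so the groups did not overlap, and *Mgp*-KO 4 and 5, the libraries that held *Mgp* reads, were the highest of their group. They are also the only KO-labelled libraries of replicates 4 and 5, so *Mgp* reads and replicate set cannot be told apart here. Non-overlap with the KO-labelled libraries lower was seen in 2.11% of the 13714 genes tested. As a share of all reads, *Scd1* took 1.35 to 3.24% of the wild-type libraries and 0.0427 to 0.537% of the KO-labelled ones.

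The mean of *Scd1* was 14.0-fold higher in wild type, 28.9-fold without *Mgp*-KO 4 and 41.5-fold without *Mgp*-KO 4 and 5. These omissions keep wild type 4 and 5, so the folds after them are not balanced for replicate set. With all 10 libraries, the log2 fold change on log2(normalized count + 1) was -4.36 (SE, the standard error, 0.61). The 95% interval was -5.70 to -3.01 and the adjusted p in limma 0.0322. *Scd1* was the only one of the 6 desaturases tested to pass, where 0.0656% of all genes tested passed in either direction. The level was lower in 5 of 5 same-numbered pairs, as in 9.94% of genes, by 20.3, 47.0, 52.5, 3.19 and 22.6-fold. The call depended on single libraries: the adjusted p in limma was 0.119, 0.135 and 0.129 without wild type 2, 3 or 5 and 0.114, 0.0560, 0.0970 and 0.0702 without *Mgp*-KO 1, 2, 3 or 5, with log2 fold changes from -4.06 to -4.92 over all 10 omissions. It was also lost in edgeR (log2 fold change -3.81, adjusted p = 0.0658), where 0.0219% of genes passed, and in limma with no filter on low values (adjusted p = 0.0747). *Scd1* passed in edgeR with a replicate block (log2 fold change -4.46, adjusted p = 0.0219), where 1.62% of genes passed, and in DESeq2 without and with a term for the set (-3.80 and -4.37, adjusted p = 4.23e-07 and 6.48e-18), where 2.26% and 7.42% of genes passed.

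**Figure D2:**
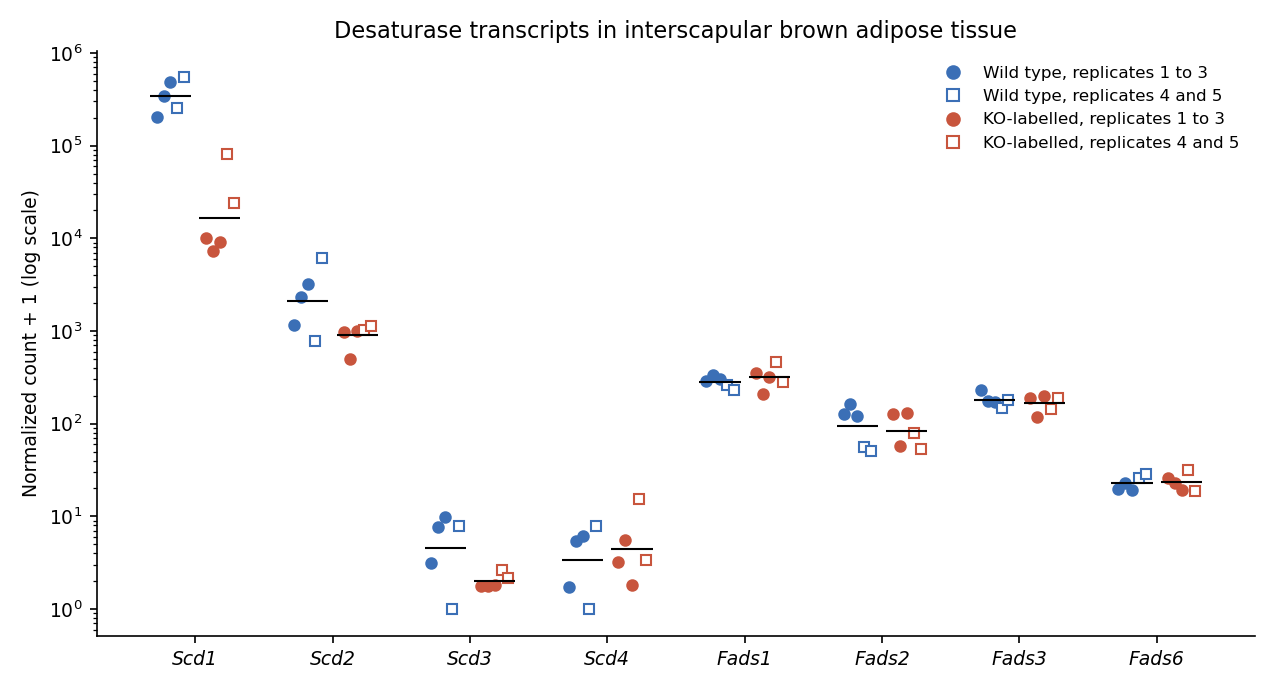
Normalized count plus 1 of each desaturase in each library, on a log axis. Filled circles are replicates 1 to 3, open squares replicates 4 and 5, blue wild type, red the KO-labelled libraries, and short lines the geometric mean of 5 libraries; only the *Scd1* points of the 2 groups are fully apart.

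Within replicates 1 to 3 the *Scd1* mean was 38.8-fold higher in wild type, with a log2 fold change of -5.20 (95% interval -5.95 to -4.46) and an adjusted p of 0.0014 in limma, where 3.54% of genes passed. Within replicates 4 and 5 the mean was 7.68-fold higher, with a log2 fold change of -3.09 (95% interval -5.78 to -0.39) and an adjusted p of 0.679 in limma, where no gene passed and 855 had an unadjusted p under 0.05. The groups did not overlap in either set, as held in this direction for 15.1% of genes in the first set and 21.3% in the second. The effect was smaller in size by 2.12 on the log2 scale in replicates 4 and 5, but this difference did not pass over all genes (unadjusted p = 0.0258, adjusted p = 0.466 in limma). Leaving out *Mgp*-KO 4 and 5 gave a log2 fold change of -5.29 with an adjusted p of 0.000143 in limma, where 1.95% of genes passed. With a term for the set it was -4.36 with an adjusted p of 0.0059, where 2.36% passed.

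*Scd2*, the isoform of brain and of developing tissues, had the largest relative spread between wild-type animals among the 6 desaturases tested, with a coefficient of variation of 77.7%. Its normalized counts were 1171, 2356, 3232, 787.1 and 6108 in wild type 1 to 5. In *Mgp*-KO 1 to 5, in the same order, they were 973.0, 502.6, 1006, 1031 and 1145. The groups overlapped, since wild type 4 fell among the KO-labelled libraries, and the wild-type values spanned 7.76-fold. The log2 fold change was -1.24 (SE 0.48, 95% interval -2.30 to -0.18) and did not pass (unadjusted p = 0.0253, adjusted p = 0.387 in limma). Without wild type 5 it was -0.86.

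In replicates 1 to 3 the *Scd2* groups did not overlap, as in 15.1% of genes, and the log2 fold change was -1.39 with an adjusted p of 0.109 in limma. In replicates 4 and 5 they overlapped, and the log2 fold change was -1.01 with an adjusted p of 0.722 in limma. *Scd2* passed in DESeq2 with a term for the set (log2 fold change -1.53, adjusted p = 0.0117), where 7.42% of genes passed, and missed the threshold in DESeq2 without it (-1.55, adjusted p = 0.0517).

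*Scd3* and *Scd4*, isoforms known from skin and its sebaceous glands and from heart, were at the limit of detection and below the filter of a mean normalized count of 10, so neither entered the test. *Scd3* had 3, 9, 12, 0 and 4 reads in wild type 1 to 5, against 1 read in each KO-labelled library. *Scd4* had 18 reads in all over the wild-type libraries and 21 over the KO-labelled ones, 9 of them in *Mgp*-KO 4. Over all libraries the groups overlapped for both genes, with an exact permutation p (two-sided, n = 5 against 5) of 0.119 for *Scd3* and 0.603 for *Scd4* on log2(normalized count + 1). Within replicates 1 to 3 the *Scd3* groups did not overlap, at 3, 9 and 12 reads against 1 read each, as in 15.1% of the genes tested, with an exact permutation p of 0.10, the smallest that 3 against 3 allows. A count of 0, as wild type 4 had for both, allows a normalized count of up to 4.397 (3 reads), for counting error only.

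The *Scd* transcripts share sequence, which bears on values this low. Of the stretches of 50 bases, the read length, in the longest annotated transcript, 6.69% of those of *Scd3* and 6.32% of those of *Scd4* also occurred in other genes, against 4.66% for *Scd1* and 4.01% for *Scd2*. The longest run that *Scd1* shared was 185 bases with *Scd3*, 147 with *Scd2* and 116 with *Scd4*. *Scd1* had 175150 to 657351 reads per library in wild type, beside 0 to 12 of *Scd3*, and 9505 to 49648 in the KO-labelled libraries, beside 1 of *Scd3*. Values of *Scd3* and *Scd4* are therefore uncertain, and whether some of their reads came from *Scd1* was not tested. For the *Fads* genes the shared portion was 0 to 0.161%.

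The balance between the *Scd* isoforms was compared within each library, as the log2 ratio of normalized counts, each with 1 added. *Scd1* over *Scd2* averaged 7.33 ± 0.67 in wild type and 4.22 ± 1.25 in the KO-labelled libraries (SD, n = 5 each), a difference of -3.12. The groups did not overlap, at 6.48 to 8.35 against 3.19 to 6.28, and *Mgp*-KO 4 was again the nearest to wild type. The exact permutation p was 0.00794 (two-sided, n = 5 against 5), the smallest this design allows, and 0.0159 after adjustment over the 6 pairs of desaturases compared. Per kilobase, *Scd1* exceeded *Scd2* by 99.8 to 364.3-fold in wild type and by 10.2 to 87.1-fold in the KO-labelled libraries. The difference in the log2 ratio was -3.81 in the first set and -2.07 in the second, where the smallest possible exact p values are 0.10 and 0.333. The ratios of *Scd1* to *Scd3* and to *Scd4* differed by -3.18 and -4.74, each with the same exact permutation p of 0.00794 (n = 5 against 5), but rest on the few reads of the second gene. Because *Scd1* alone already separated the groups, these p values largely repeat that result and do not measure isoform balance. With 0.5 added to each count the differences were -3.06 and -4.89, and with 10 added -3.96 and -4.47.

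**Figure D3:**
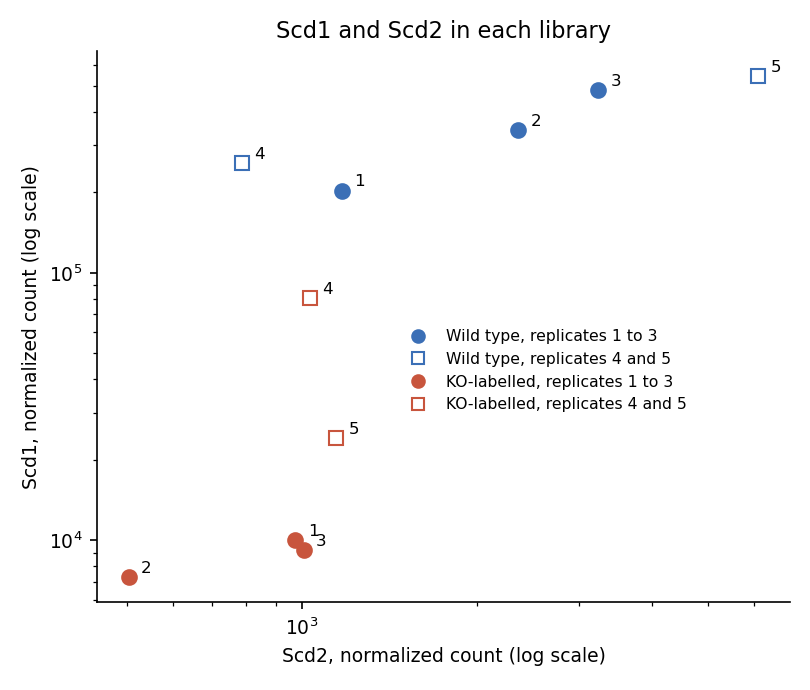
Normalized count of *Scd1* against that of *Scd2* in each library, both axes on a log scale, with replicate numbers beside the points and colours and shapes for group and replicate set. The KO-labelled libraries lie below all wild-type libraries in *Scd1* while wild type 4 lies within their range in *Scd2*.

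The *Fads* genes of polyunsaturated fatty acid synthesis did not pass the genotype test. *Fads1*, the delta-5 desaturase, had normalized counts of 288.3, 337.7, 299.2, 263.8 and 231.9 in wild type 1 to 5. *Mgp*-KO 1 to 5 gave 354.2, 208.1, 317.0, 466.2 and 282.5. The groups overlapped, and the log2 fold change was 0.16 (SE 0.22, 95% interval -0.32 to 0.64, adjusted p = 0.849 in limma). In replicates 4 and 5 both KO-labelled libraries were above both of wild type, as in 20.3% of genes, with a log2 fold change of 0.55 (adjusted p = 0.687 in limma), whereas in replicates 1 to 3 it was -0.11.

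*Fads2*, the delta-6 desaturase that starts the pathway, had normalized counts of 125.9, 164.0, 119.1, 55.7 and 50.2 in wild type 1 to 5. *Mgp*-KO 1 to 5 gave 126.6, 56.6, 129.7, 77.7 and 52.8. The split ran with the replicate set rather than with the genotype: replicates 4 and 5 were low in both groups, and *Mgp*-KO 2 was the one low library among replicates 1 to 3. The log2 fold change for genotype was -0.17 (SE 0.39, 95% interval -1.02 to 0.69, adjusted p = 0.920 in limma). Between the sets *Fads2* was lower in replicates 4 and 5, with a log2 difference of -0.97 (SE 0.27, 95% interval -1.57 to -0.37) and an adjusted p of 0.0171 in limma, genotype held constant. A share of 38.2% of all genes passed this test, and 1 of 6 desaturases, a count among the members no higher than the background. Depth was 19616366 to 22252260 reads in replicates 1 to 3 and 9253793 to 13281873 in replicates 4 and 5, and what sets the 2 apart was not tested.

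*Fads3*, which acts on sphingoid bases, had normalized counts of 145.1 to 231.8 in wild type and 117.0 to 200.4 in the KO-labelled libraries, with a log2 fold change of -0.11 (SE 0.21, 95% interval -0.56 to 0.34, adjusted p = 0.894 in limma). *Fads6*, a family member whose substrate is not settled, had 18.4 to 27.7 and 17.6 to 30.8, with a log2 fold change of 0.01 (SE 0.29, 95% interval -0.62 to 0.65, adjusted p = 0.991 in limma). For both genes the groups overlapped. Their intervals leave room for changes of up to 0.65 on the log2 scale, so that equality of the groups is not shown. Log2 ratios within a library differed between the groups by 0.33 for *Fads1* over *Fads2*, 0.27 for *Fads1* over *Fads3* and -0.06 for *Fads2* over *Fads3*. The exact permutation p values (two-sided, n = 5 against 5) were 0.365, 0.317 and 0.833. The last of these differences was 0.23 in replicates 4 and 5.

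**Figure D4:**
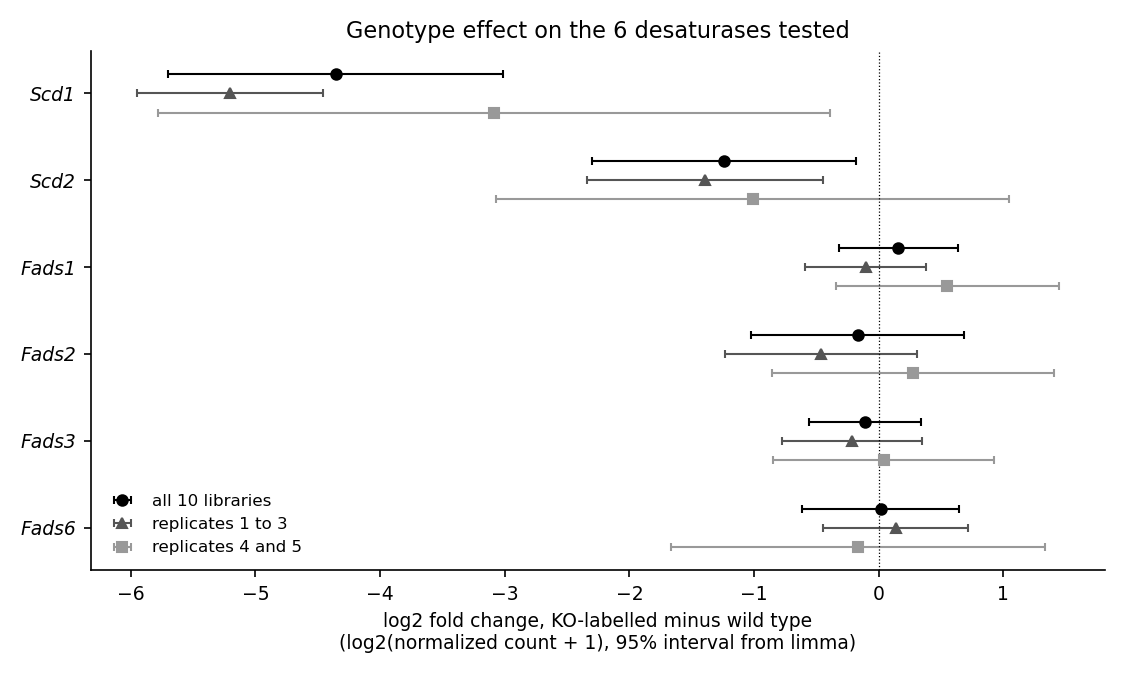
Log2 fold change between the KO-labelled libraries and wild type, on log2(normalized count + 1), for the 6 desaturases tested, with 95% intervals from limma over all 10 libraries and within each of the 2 replicate sets. The 3 intervals of *Scd1* lie below 0, that of *Scd2* in replicates 4 and 5 spans 0, and those of all *Fads* genes span 0.

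Across the replicate sets, *Scd1* had a log2 difference of 1.27, higher in replicates 4 and 5 (95% interval 0.16 to 2.39), which did not pass in limma (adjusted p = 0.0676) and passed in DESeq2 (1.50, adjusted p = 0.0059), where 32.7% of genes passed. Its mean was 8831 in *Mgp*-KO 1 to 3 and 52279 in *Mgp*-KO 4 and 5, the libraries of uncertain genotype. In wild type it was 342806 in replicates 1 to 3 and 401402 in replicates 4 and 5. *Scd2*, *Fads1*, *Fads3* and *Fads6* had differences of 0.27, 0.01, -0.11 and 0.26, none of them past the threshold. No desaturase passed the test of whether the genotype effect differed between the sets, in limma or in DESeq2 (1 unadjusted p under 0.05 in limma, that of *Scd1*), where 0.00729% and 0.406% of all genes did.

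Steps before, beside and after desaturation were read from lists of related genes, whose median log2 fold changes can be set beside 0.03 over all 13714 genes tested. The lists were chosen with earlier results of these data known, so they carry no independent support. Synthesis of saturated fatty acids, which supplies the substrate of SCD1, had the lowest median, at -2.07 over 9 genes, of which 3 fell in limma against a background of 0.0583%. With the set term 7 of the 9 were lower, against 1.54% of genes, and 7 within replicates 1 to 3, where 3.54% passed in either direction, whereas no gene of the whole table passed on genotype alone in limma without wild type 2, 3 or 5 or *Mgp*-KO 1 or 3 (1060 to 1419 genes with an unadjusted p under 0.05). The 3 genes were *Fasn*, the fatty acid synthase (log2 fold change -3.86), *Acaca*, the acetyl-CoA carboxylase that makes malonyl-CoA (-2.52), and *Slc25a1*, the mitochondrial citrate carrier (-2.003), with adjusted p of 0.026, 0.026 and 0.047 in limma. With *Acly*, *Acss2*, *Me1* and *Thrsp*, 7 of the 9 had groups that did not overlap, as did 2.11% of all genes in this direction.

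Elongation of fatty acids had a median of -0.60 over 11 genes tested of 13, with none past the threshold in limma over all libraries and 4 lower with a term for the set (*Elovl3*, *Elovl5*, *Hsd17b12* and *Hacd2*), where 1.54% of genes were lower. *Elovl3*, the elongase of brown fat that is induced by cold, had normalized counts of 35.1, 90.6, 145.6, 1130 and 2037 in wild type 1 to 5, against 5.3, 10.7, 10.7, 139.2 and 29.3 in *Mgp*-KO 1 to 5. Wild type 4 and 5 were the highest libraries, and within each set every wild-type value stood above every KO-labelled one, as in 15.1% of genes in replicates 1 to 3 and 21.3% in replicates 4 and 5. Its log2 fold change was -3.65 with an adjusted p of 0.254 in limma and 0.010 with the set term. *Elovl6*, which extends palmitate to stearate, the substrate of SCD1, had -1.30 (adjusted p = 0.301 in limma, 0.078 with the set term). *Hsd17b12* and *Hacd2*, which act at later steps of each elongation cycle, had -1.06 and -0.91, with adjusted p of 0.045 and 0.049 in limma with the set term.

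Electron supply to the desaturases had a median of -0.24 over 6 genes tested of 7, with none past the threshold in limma. In DESeq2, 2 of them were lower without a term for the set and 2 with it, where 2.26% and 7.42% of genes passed in either direction. Groups did not overlap, as in 2.11% of all genes, for *Cyb5b*, a cytochrome b5 of the outer mitochondrial membrane (log2 fold change -0.81, adjusted p = 0.204 in limma), or for *Cyb5rl*, named as a cytochrome b5 reductase-like gene (-0.96, adjusted p = 0.188 in limma). *Cyb5a*, the cytochrome b5 of the endoplasmic reticulum, had a log2 fold change of 0.36 and *Cyb5r3*, its reductase, of -0.01 (adjusted p = 0.7498 and 0.995 in limma). Within replicates 1 to 3 *Cyb5a* was higher in the KO-labelled libraries, with a log2 fold change of 0.84 (adjusted p = 0.038 in limma), in a fit where 3.54% of genes passed in either direction, whereas no gene of the list passed in limma with the set term. The other membrane-bound lipid desaturases had a median of -0.32 over 4 genes tested of 6. Among them *Degs1*, the dihydroceramide desaturase, had 0.15 (adjusted p = 0.812 in limma) and *Sc5d*, of cholesterol synthesis, -0.58 (adjusted p = 0.666 in limma).

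None of 15 regulators of desaturase transcription passed in limma, with a median of -0.22. *Srebf1*, which encodes the lipogenic factor SREBP1, had normalized counts of 4859, 4795, 7025, 1149 and 3783 in wild type 1 to 5, against 2772, 2317, 3142, 802.9 and 1498 in *Mgp*-KO 1 to 5. The groups did not overlap within replicates 1 to 3, as in 15.1% of genes, but wild type 4 was below *Mgp*-KO 5 and made them overlap within replicates 4 and 5 and over all libraries, and the log2 fold change was -0.97 (adjusted p = 0.531 in limma; 0.036 within replicates 1 to 3, where 3.54% of genes passed). *Nr1h3*, the liver X receptor alpha, had groups that did not overlap, as in 2.11% of genes, and a log2 fold change of -0.57 (adjusted p = 0.215 in limma, and 0.043 with the set term, where 1.54% of genes were lower). *Mlxipl*, the carbohydrate response factor ChREBP, had -0.22 and *Pparg*, the master factor of adipocytes, 0.10 (adjusted p = 0.811 and 0.922 in limma).

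Genes that use monounsaturated fatty acids had a median of -0.60 over 8 genes, none of them past the threshold in limma. Groups did not overlap for 3 of them, against 2.11% of all genes, and 2 were lower with the set term, against 1.54%. The list also holds *Lpcat3* and *Mboat7*, acyltransferases that prefer polyunsaturated chains. *Agpat2*, which adds the second acyl chain in triglyceride synthesis, had a log2 fold change of -2.47 without overlap (adjusted p = 0.097 in limma, 0.018 with the set term). *Lpcat3*, which acts on phospholipids, had -0.78 without overlap (adjusted p = 0.134 in limma, 0.020 with the set term). *Lpin1*, the phosphatidate phosphatase, stood on the other side, with 0.96 (adjusted p = 0.412 in limma).

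**Figure D5:**
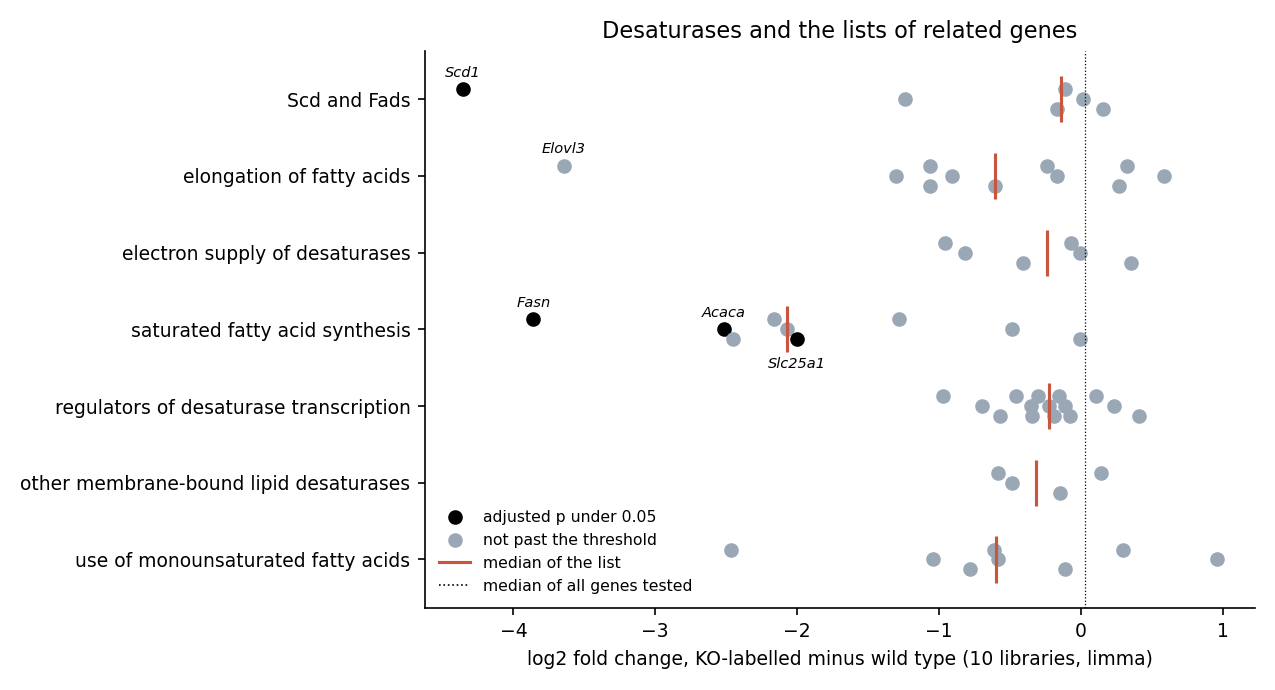
Log2 fold change between the KO-labelled libraries and wild type over all 10 libraries, one point per gene tested, for the desaturases and 6 lists of related genes. Black points passed an adjusted p of 0.05 in limma, red lines are list medians and the dotted line the median of all genes tested; *Scd1* lies farthest to the left and saturated fatty acid synthesis has the lowest median.

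Among the genes whose log2 levels followed *Scd1* most closely over the 10 libraries were *Ipo8* (Pearson r = 0.981), *Gpd2* (0.978), *Spc25* (0.971) and *Adcy10* (0.967), while r with *Scd2* was 0.724. *Gpd2* encodes the mitochondrial glycerol-3-phosphate dehydrogenase of brown fat, with normalized counts of 15513 ± 1883 in wild type and 8035 ± 1249 in the KO-labelled libraries (SD, n = 5 each). Since it was picked for following *Scd1*, a lower mean in the KO-labelled libraries follows from that choice. *Adcy10* averaged 84.2 in wild type and 4.26 in the KO-labelled libraries, so it passed the filter of 10 only through wild type. The genes closest to *Scd2* were *Sqle* (0.970), *Nsdhl* (0.948), *H1f0* (0.944), *Kbtbd11* (0.930) and *Lacc1* (0.928), the first pair of which encode enzymes of cholesterol synthesis. For *Fads2* they were *Hspg2* (0.962), *Tln2* (0.952), *Cenpa* (0.949), *Lrsam1* (0.946) and *Col4a2* (0.942), where *Hspg2* and *Col4a2* encode basement membrane proteins. These libraries share group, set and depth, so the coefficients are descriptions of 10 points and carry no p.

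In bulk tissue, fewer cells of a type and less RNA per cell cannot be told apart. Beside the lower *Scd1*, the 15 brown adipocyte markers had a median log2 fold change of -0.36, with none past the threshold in limma on genotype alone and 2 without overlap, against 2.11% of genes. With the set term 4 of the 15 were lower in limma, where 1.54% of genes were: *Ucp1*, the uncoupling protein of brown fat (log2 fold change -2.70), *Adrb3*, the beta-3 adrenergic receptor (-2.37), *Dio2*, the deiodinase that activates thyroid hormone (-3.35), and *Elovl3*. Within replicates 1 to 3 *Ucp1*, *Adrb3* and *Elovl3* were lower past the threshold, in a fit where 3.54% of genes passed in either direction. *Scd1* and *Scd3* are also genes of sebaceous glands, and skin and sebocyte markers, 3 of 9 tested, had a median of -0.72, and *Krt79* among them did not overlap between the groups and was lower past the threshold in limma with the set term (log2 fold change -1.76, adjusted p = 0.021). The summed normalized counts of the list were 6013 to 12395 in wild type and 4319 to 11046 in the KO-labelled libraries. Schwann cell and nerve markers, a list of 8 with 7 tested, had a median of -0.38 and sums of 2329 to 3430 and 1627 to 3788. Endothelial markers had a median of 0.42 over 10 genes, with sums of 20531 to 32478 and 22872 to 58789. Adipose progenitor, myeloid, white adipocyte and lymphocyte markers had medians of -0.14, 0.10, 0.03 and 0.47. Skeletal muscle markers had a median of 0.30 in limma and 2.69 in DESeq2, with sums of 45.7 to 6188 in wild type and 36.1 to 35839 in the KO-labelled libraries, and erythroid markers had medians of 0.60 and 1.12, with sums of 6441 to 19958 and 3009 to 101497. No listed marker was at 0 in every library, none passed in limma on genotype alone over all libraries, and their part in the results was not tested.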

How the data were processed

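RNA of iBAT from 10 mice was sequenced as single-end reads of 50 bases. The authors mapped reads with STAR to mm10, counted them per gene and deposited counts divided by DESeq2 size factors, a normalized signal. Each value was a whole multiple of 1 read's worth (100.0% of values, within 0.01 of a read), so reads were recovered, with 9253793 to 22252260 per library. The 13714 genes whose normalized counts averaged at least 10 were tested on log2(normalized count + 1) in limma 3.58.1 (R 4.3.3, moderated with a mean-variance trend), genotype alone, with Benjamini-Hochberg adjustment over all of them and a threshold of 0.05. The set effect was fitted beside genotype and the difference between sets as an interaction. Pairs of genes were compared by exact permutation tests of log2 ratios of normalized counts plus 1. Alternatives used edgeR 4.0.16 and DESeq2 1.42.0 on the recovered reads, other pseudocounts, filters and scalings, a replicate block, and each library left out. Fits were tested on simulated data.

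Exon lengths and positions came from GENCODE vM21 on GRCm38, which held 94.1% of the listed symbols, and promoters from RefSeq. Genes named in the text were the 8 desaturases, members of the lists of related genes, the 5 genes most correlated with *Scd1*, *Scd2* and *Fads2*, and genes that check the labels. One of the genes correlated with *Scd1* is not reported here. Single cell type markers (*Ucp1*, *Adrb3*, *Dio2* and *Krt79*) were named after their values were seen, because they passed in some fits. The members and lists were chosen with earlier results of these data known. Nothing says whether the replicate numbers mark litters. Since the labels name separate mice only as replicates, p values measure the spread between these samples. Whether counting used strand is not given in the sources used here, and *Scd3* overlaps an antisense gene, AC125101.1, that the table does not list.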

Additional observations from a re-analysis of the deposited data

Results flagged for a closer look

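Among 42 groups of 5 libraries examined, 6 had 1 library far from the other 4, at a gap of more than 0.710 of the range. Independent values from a normal distribution pass this limit in about 1 in 20 groups. Some of these groups share genes and each mixes both replicate sets, so that rate is no yardstick for the 6. *Mgp*-KO 4 had a normalized count of 80369 for *Scd1*, against 7271 to 24189 in the other 4, and an *Scd1* share of 0.537% of reads against 0.0427 to 0.155%. The same library had 14.6 for *Scd4*, against 0.821 to 4.59, a difference of a few reads. *Mgp*-KO 2 had 502.6 for *Scd2*, against 973.0 to 1145. Wild type 4 had a log2 ratio of *Scd1* to *Scd3* of 17.97, against 15.4 to 16.1, since it had 0 *Scd3* reads. Wild type 2 had 5094 for *Xist*, against 1.47 to 44.0.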

How the results depend on the processing

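Over 16 alternatives the log2 fold change of *Scd1* kept its sign, from -5.29 to -3.09, and 13 kept the call. The value of -5.29 came from the fit without *Mgp*-KO 4 and 5, which is not balanced for replicate set. The number of desaturases past the threshold, 1, became 2 in DESeq2 with the set term and 0 in edgeR with TMM, with no filter on low values and within replicates 4 and 5, and was 0 to 1 with each library left out. For the replicate set it became 2 in DESeq2, and for the difference between sets it was 0 in each alternative.

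Over all genes, 9 passed for genotype in limma. The count was 1152 in DESeq2 with the set term, 374 in DESeq2, 3 in edgeR (1569 with an unadjusted p under 0.05), 15 at a mean of at least 50, 1 with no filter, 29 with a pseudocount of 10, 34 after quantile normalization, 324 with the set term, 486 within replicates 1 to 3, 0 within replicates 4 and 5, 267 without *Mgp*-KO 4 and 5, and 0 to 93 with each library left out. With a replicate block it was 270 in limma and 222 in edgeR. The study speaks of pairs of mice without saying that a number marks one. Deviations of same-numbered libraries correlated at 0.0559 to 0.527, with a mean of 0.39 that became -0.022 after set means were subtracted, and 5 of 10 libraries correlated best with their own number, so the libraries were taken to share only a number. Under the block the adjusted p of *Scd1* was 0.0179 in limma, and no other desaturase passed.

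Values near 0 changed sign. *Fads1* was -0.11 within replicates 1 to 3. *Fads2* was 0.27 within replicates 4 and 5, 0.0719 without *Mgp*-KO 4 and 5 and -0.39 to 0.0346 with each library left out, where *Fads3* ran from -0.185 to 0.00887 and *Fads6* from -0.0983 to 0.0950. *Fads3* was 0.0404 and *Fads6* -0.17 within replicates 4 and 5, and *Fads6* was -0.0770 after quantile normalization and -0.0288 without *Mgp*-KO 4 and 5. The set difference in the *Scd2* effect was -0.22 in DESeq2. The difference between the groups in the log2 ratio of *Fads2* to *Fads3* was 0.23 within replicates 4 and 5 and -0.28 to 0.16 with each library left out. The differences between the groups in the log2 ratios of *Scd1* to *Scd2*, *Scd3* and *Scd4* were -3.81, -3.40 and -4.94 within replicates 1 to 3 and -2.07, -2.85 and -4.44 within replicates 4 and 5, where the design cannot pass the threshold. With each library left out they ran from -3.63 to -2.86, -3.65 to -2.74 and -4.98 to -4.36. The cause of these differences was not tested. At 9253793 to 22252260 reads the precision of *Scd3* and *Scd4* was limited by their 0 to 12 reads per library.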
